A study of Mus musculus with 4 samples.

Results

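The genes described here are 31 genes of the PIWI-interacting RNA (piRNA) pathway, of germ granules and of DNA methylation, of 32285 genes in the matrices. They were listed by gene symbol, with no measured value in the rule, although earlier results of these data were known. The 31 symbols each matched 1 gene. The set holds 3 PIWI proteins, 10 Tudor domain proteins, 10 factors of piRNA processing and germ granules, 2 transcription regulators of piRNA loci and 6 genes of DNA methylation and silencing.

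piRNAs are small RNAs of the germline that guide PIWI proteins to transposon transcripts. PIWI proteins cut those transcripts in cytoplasmic granules, the nuage or intermitochondrial cement, where Tudor domain proteins bind their methylated arginines, and the nuclear PIWI protein directs new DNA methylation onto transposon promoters in fetal male germ cells. DNMT3A and DNMT3B, with their cofactor DNMT3L, place new methylation, and DNMT1 with UHRF1 copies it after replication. Spermatogonia are the mitotic germ cells of the testis, in which part of this machinery is already active, while the pachytene piRNA program starts later, in meiosis.

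Single-cell RNA sequencing had been performed on mouse primary spermatogonial cultures. The cultures came from 3 male mice at postnatal day 6, and Thy1+ cells were taken by magnetic sorting and grown on STO feeder cells, a mouse fibroblast line. All cultures received medium with the growth factors GDNF and FGF. The vehicle group was treated with PBS (libraries vehicle 1 and vehicle 2), and the EV group with 1 µg/ml of extracellular vesicles (EVs) from whole testes at postnatal day 7 (EV 1), both for 3 days. The mice of the study were C57BL/6, and no group carried a transgene or a deletion. A total of 4 libraries were listed, and the expression of EV 2 was not analysed here. The titles call the libraries biological replicates and the study describes them as independent, without saying that they came from separate animals. The p-values thus do not cover the spread between animals. They rest largely on a spread shared across genes, and less on each gene's own spread between these libraries.

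After filtering, 8263, 8637 and 4779 cells remained in vehicle 1, vehicle 2 and EV 1, with 21291421, 24004007 and 10016410 unique molecular identifiers (UMIs, 1 per captured transcript). A cell was put in the germ class with at least 2 UMIs of Dazl and Epcam, more than of Col1a1, Col1a2, Sparc and Dcn together, and in the feeder class by the reverse rule. The germ class held 3331 and 3698 cells in the vehicle libraries (40.3% and 42.8%), but 126 cells (2.64%) in EV 1, which stood apart. The feeder class held 2408, 2503 and 2512 cells. Since the rule fixes the level of its own genes, the classes were checked with the other markers. The 8 germ cell markers that the rule did not use summed to 865, 897 and 566 UMIs per 1000000 UMIs (CPM) in the germ class of vehicle 1, vehicle 2 and EV 1 and to 50.0, 41.7 and 25.6 CPM in the feeder class. The 6 such fibroblast markers summed to 3427, 3563 and 3901 CPM in the feeder class and to 306, 254 and 518 CPM in the germ class, with Lum at 0 in every germ class and in vehicle 1 feeders. The germ class of EV 1 thus had less of the former and more of the latter than the vehicle germ classes. Of the markers of other testis cells, 5 Sertoli cell genes summed to 27.4 to 52.9 CPM in the germ class and to 283 to 302 CPM in the feeder class, with Amh at 0 in every germ class and in the feeder class of vehicle 1 and EV 1, and 5 Leydig cell genes to at most 6.94 CPM in the germ class with Insl3 and Hsd3b1 at 0. The 4 endothelial markers summed to 17.5, 18.4 and 31.7 CPM in the germ class (6 UMIs in EV 1) and to 6.91, 4.52 and 6.04 CPM in feeders, 4 macrophage markers to 5.63, 6.38 and 15.9 CPM (3 UMIs in EV 1) and to 8.46, 8.31 and 20.9 CPM, and 4 peritubular myoid markers to at most 22.9 CPM in either class. The part of these markers in the results was not tested. At most 22 barcodes were shared by any pair of libraries.

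The main contrast among the members, described below, was between genes with much higher levels in germ cells and genes whose level in feeders was as high or higher, and the promoters of 4 members of the former kind and 1 of the latter are shown here. RefSeq (GRCm38.p6) gave promoter windows, from 250 bases before to 50 bases after the transcription start, for 25 of the 31 members (41 windows). Piwil2, Tdrd6, Tex15, Rnf17, Mybl1 and Morc1 had none. Capitals mark CACGTG, which reads the same on both strands, and GGCGGGAA or its reverse complement TTCCCGCC. These are the letters bound by MGA with MAX and by E2F6, subunits of a Polycomb complex known for silencing germline genes in somatic cells. Ddx4 (chr13:112652261-112652560, minus strand) held both motifs, while Stk31 (chr6:49395289-49395588, plus strand), Tdrd1 (chr19:56825959-56826258, plus strand) and Mael (chr1:166238695-166238994, minus strand) held CACGTG. Tdrd3 (chr14:87416333-87416632, plus strand), which was higher in feeders, held neither. The 5 windows were picked to show the motifs and are not typical of their kinds: CACGTG also stood in windows of Dnmt3a, Dnmt3l, Fkbp6 and Tdrd9, whose feeder levels were above the reference range defined below, and in none of Asz1, Tdrd5, Tdrd12 and Tdrkh, which were higher in germ cells.
Ddx4: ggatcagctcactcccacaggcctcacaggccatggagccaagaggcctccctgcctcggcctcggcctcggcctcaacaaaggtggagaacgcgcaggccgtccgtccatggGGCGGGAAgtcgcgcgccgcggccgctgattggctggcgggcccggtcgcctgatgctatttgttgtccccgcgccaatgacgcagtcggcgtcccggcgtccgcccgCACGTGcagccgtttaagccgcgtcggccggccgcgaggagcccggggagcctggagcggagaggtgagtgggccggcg
Stk31: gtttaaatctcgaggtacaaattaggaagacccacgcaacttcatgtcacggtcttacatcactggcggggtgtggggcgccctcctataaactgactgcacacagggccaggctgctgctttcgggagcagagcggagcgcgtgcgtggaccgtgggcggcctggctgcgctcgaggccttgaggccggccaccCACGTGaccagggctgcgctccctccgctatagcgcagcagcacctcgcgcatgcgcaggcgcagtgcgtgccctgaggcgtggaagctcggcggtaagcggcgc
Tdrd1: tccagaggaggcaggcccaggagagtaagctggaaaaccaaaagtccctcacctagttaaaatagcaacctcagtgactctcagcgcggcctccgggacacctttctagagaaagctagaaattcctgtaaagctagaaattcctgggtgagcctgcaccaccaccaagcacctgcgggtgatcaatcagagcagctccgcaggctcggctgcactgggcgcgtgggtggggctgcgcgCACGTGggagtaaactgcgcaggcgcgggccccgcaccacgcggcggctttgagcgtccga
Mael: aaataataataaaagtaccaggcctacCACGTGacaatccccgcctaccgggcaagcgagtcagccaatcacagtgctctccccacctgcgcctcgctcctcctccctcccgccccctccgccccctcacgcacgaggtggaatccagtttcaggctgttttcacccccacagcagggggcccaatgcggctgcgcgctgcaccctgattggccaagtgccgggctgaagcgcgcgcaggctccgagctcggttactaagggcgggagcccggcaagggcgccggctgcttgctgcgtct
Tdrd3: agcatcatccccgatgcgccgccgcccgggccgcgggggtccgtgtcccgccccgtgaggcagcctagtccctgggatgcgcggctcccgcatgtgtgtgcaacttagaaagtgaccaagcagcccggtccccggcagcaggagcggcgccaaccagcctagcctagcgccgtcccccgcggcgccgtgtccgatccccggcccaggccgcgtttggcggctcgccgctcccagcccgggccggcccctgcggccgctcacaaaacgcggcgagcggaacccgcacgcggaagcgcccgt

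CACGTG stood in the windows of 11 of the 25 members with an entry, or in 14 of 41 windows (34.1%), against 7.15% of all 32851 windows. The members' windows were richer in CG pairs, with a median of 21 against 7. Among windows with at least 20 CG pairs, CACGTG was in 39.1% of 23 member windows and in 11.6% of 8701 windows overall. GGCGGGAA was in 2 of the members' windows (4.88%), of Ddx4 and Uhrf1, against 2.19% of all windows. These matches are a description of letters in a short window, and several genes have more than 1 window, some of which overlap.

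In the vehicle libraries, most UMIs of the members lay in the germ class. Of all UMIs of the 31 genes in the vehicle libraries, 65.6% and 69.3% lay in the germ class, 9.21% and 8.33% in the feeder class, and 25.2% and 22.4% in cells of neither class. In EV 1, with its few germ cells, 13.9% lay in the germ class, 41.5% in the feeder class and 44.6% in neither. The summed level was 2551 and 2750 CPM in vehicle germ cells and 2347 CPM in the 126 germ cells of EV 1, against 276, 273 and 196 CPM in the feeder classes. UMIs were not divided by transcript length, so a level is compared between classes and libraries but not between genes.

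Within each library, germ class and feeder class sums were compared with edgeR's quasi-likelihood test across 15034 genes, with the library as a block. Of the 22 members tested, 17 were higher in the germ class, against 40.1% of all genes tested, and 3 were lower, against 42.3% (adjusted p under 0.05). The median log2 fold change of the tested members was 3.86, against -0.04 over all genes tested. Leaving out EV 1 gave 21 higher and 3 lower of 27 tested, and all 20 members called with EV 1 were called without it, beside Piwil1, Tdrd6, Gtsf1 and Pld6.

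**Figure D1:**
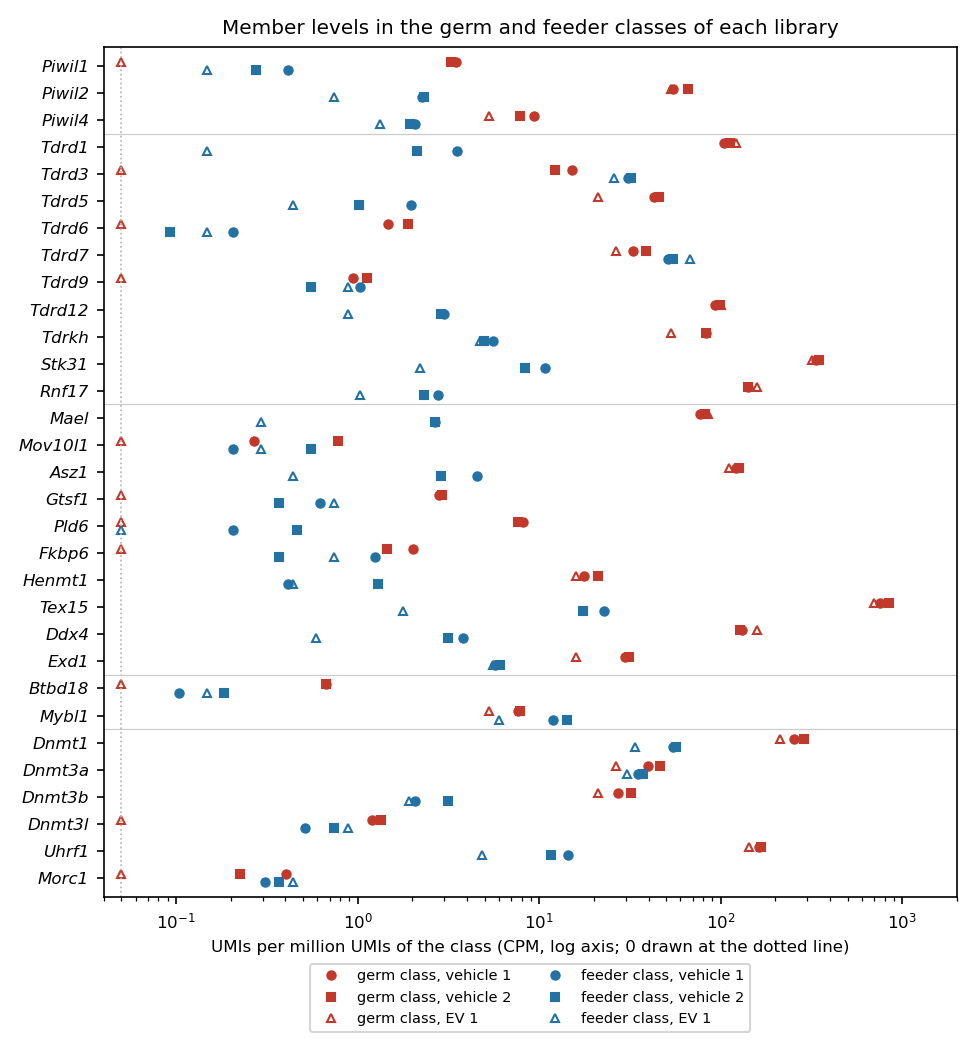
Level of each member (vertical axis, in the order of their roles) in CPM (horizontal log axis) in the germ class (red) and the feeder class (blue) of vehicle 1, vehicle 2 and EV 1. Tex15, Stk31, Ddx4 and Rnf17 lie far apart between classes, while Tdrd3, Tdrd7 and Mybl1 lie higher in the feeder class of the vehicle libraries, and triangles on the dotted line mark classes of EV 1 with no UMI of the member.

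Among the PIWI proteins, Piwil2 (MILI), the cytoplasmic slicer of spermatogonia, stood at 54.3, 65.6 and 52.9 CPM in germ cells of vehicle 1, vehicle 2 and EV 1, and at 2.27, 2.31 and 0.736 CPM in feeders. The classes did not overlap, with a log2 fold change of 4.45 ± 0.17 (SE, n = 3 libraries, edgeR adjusted p = 3.5e-45). Piwil4 (MIWI2), the nuclear PIWI protein that directs methylation, was low in germ cells at 9.38, 7.84 and 5.29 CPM and 1.74 ± 0.26 higher on the log2 scale than in feeders (edgeR adjusted p = 3.8e-09). The 5.29 CPM of EV 1 is 1 UMI. Piwil1 (MIWI), the PIWI protein of meiotic and later germ cells, had 26 and 29 UMIs in the vehicle germ classes, or 3.48 and 3.25 CPM, and 0 UMIs in EV 1, which allows up to 15.9 CPM at 3 UMIs. It did not pass the filter on low counts.

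The Tudor domain proteins split between classes. Tdrd1, which binds MILI in the intermitochondrial cement, measured 104, 113 and 122 CPM in germ cells against 3.51, 2.12 and 0.147 CPM in feeders, a log2 fold change of 5.17 ± 0.16 (edgeR adjusted p = 6e-53). Stk31, a Tudor domain protein with a kinase-like domain, stood at 334, 350 and 317 CPM against 10.7, 8.31 and 2.21 CPM. Rnf17, a RING finger protein with Tudor domains, stood at 141, 141 and 159 CPM against 2.79, 2.31 and 1.03 CPM, and its log2 fold change of 5.58 ± 0.15 was the largest of the tested members (edgeR adjusted p = 3.2e-58). For these 3 genes every germ class was above every feeder class by far more than the spread between libraries. Tdrd5, Tdrd12 and Tdrkh, the mitochondrial partner of piRNA trimming, were likewise higher in germ cells, with log2 fold changes of 4.59, 4.83 and 3.57. Tdrkh overlaps Gm42463 on the same strand, so reads in the shared part cannot be told apart by position, and their number was not examined.

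Tdrd3 and Tdrd7 went the other way. Tdrd3, better known as a partner of the topoisomerase TOP3B, measured 15.1 and 12.2 CPM in vehicle germ cells, had no UMI in EV 1 germ cells, and stood at 30.8, 31.8 and 25.8 CPM in feeders (log2 fold change -1.56 ± 0.13, edgeR adjusted p = 8.7e-20). Tdrd7, a granule protein also needed in the lens, measured 32.8, 39.0 and 26.4 CPM in germ cells and 51.2, 54.6 and 68.0 CPM in feeders (log2 fold change -0.92 ± 0.10, edgeR adjusted p = 2.7e-14). Feeders were above germ cells in each library for both genes. Tdrd6 and Tdrd9 were not tested, with 28 and 17 UMIs in the germ classes of all libraries.

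The factors of piRNA processing and of the granules were mostly higher in germ cells, with the exceptions given below. Tex15 (chr8:33516738-33585582, GRCm38, plus strand), which is needed for piRNA-directed methylation, measured 752 and 844 CPM in vehicle germ cells and 698 CPM in EV 1 germ cells, against 22.7, 17.4 and 1.77 CPM in feeders. The log2 fold change was 5.43 ± 0.23 (edgeR adjusted p = 3.7e-41). Ddx4, the VASA helicase and the classical germ cell marker, stood at 132, 127 and 159 CPM against 3.82, 3.14 and 0.589 CPM (log2 fold change 5.09 ± 0.15). Mael and the mitochondrial scaffold Asz1 were 4.72 and 4.90 higher on the log2 scale. The low Henmt1, which methylates piRNA 3′ ends, was 4.14 ± 0.26 higher, and Exd1, a partner of Tdrd12, 1.98 ± 0.15 higher, with germ levels of 17.7, 21.2 and 15.9 CPM and 29.6, 31.3 and 15.9 CPM. Fkbp6, an HSP90 co-chaperone, had 28 UMIs in germ cells and was not called (log2 fold change 0.76 ± 0.50, edgeR adjusted p = 0.15). Mov10l1, the helicase that feeds piRNA precursors, Gtsf1, a PIWI cofactor, and the endonuclease Pld6 were not tested, with 9, 47 and 129 UMIs in germ cells, none of them from EV 1.

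Both transcription regulators had few UMIs. Mybl1 (A-MYB), the activator of pachytene piRNA loci, measured 7.64, 7.84 and 5.29 CPM in germ cells against 11.97, 14.2 and 6.04 CPM in feeders (log2 fold change -1.09 ± 0.17, edgeR adjusted p = 7.9e-09). The EV 1 germ level is 1 UMI, and leaving out vehicle 2 ended the call (edgeR adjusted p = 0.088, with a range of 5.7e-14 to 0.088 over the 10 alternatives). Btbd18, which sustains transcription of those loci, had 11 UMIs in germ cells.

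Of the methylation genes, Dnmt1 measured 254, 287 and 211 CPM in germ cells and 54.4, 56.8 and 33.6 CPM in feeders (log2 fold change 1.94 ± 0.13, edgeR adjusted p = 1.2e-25). Uhrf1, its recruiter, measured 162, 167 and 143 CPM against 14.4, 11.5 and 4.86 CPM (log2 fold change 3.39 ± 0.11, edgeR adjusted p = 9e-52). Both copying factors were thus above feeders in every library. Of the enzymes for new methylation, Dnmt3b was 3.13 ± 0.18 higher in germ cells (27.2, 32.0 and 21.1 CPM against 2.06, 3.14 and 1.91 CPM). Dnmt3a did not separate the classes, at 39.8, 46.5 and 26.4 CPM against 34.9, 37.4 and 30.6 CPM (log2 fold change -0.09 ± 0.10, edgeR adjusted p = 0.39), and only with DESeq2 size factors was it called lower in germ cells, at -0.21. By CPM alone it was higher in germ cells of both vehicle libraries, so its direction depended on the scaling. Their cofactor Dnmt3l and the silencing factor Morc1 had 21 and 5 UMIs in germ cells and were not tested.

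Further genes of the pathways were counted from lists of symbols, also drawn up with earlier results known. Of 20 piRNA and granule companions, 17 were tested, 16 were higher in germ cells and 0 were lower (0 also at an unadjusted p under 0.05, and 14 higher and 0 lower by DESeq2). The 3 with the highest log2 fold change were Ddx25, a helicase of the chromatoid body, at 5.08, Gpat2, a factor of piRNA production, at 4.86, and Dnd1, an RNA-binding protein of germ cells, at 4.71. Of 25 methylation companions, 23 were tested, of which 12 were higher and 11 lower (10 and 8 by DESeq2), near the shares of 40.1% and 42.3% over all genes. The highest were the chromatin remodeller Hells (4.43), the deubiquitinase Usp7 (2.40) and the glycosylase Mbd4 (2.07), and the lowest were the methylcytosine oxidase Tet2 (-4.71), the cytidine deaminase Apobec1 (-3.33) and Morc4 (-1.20).

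The feeder level of each member was next expressed as a percent of its germ level in the same library, since free RNA in droplets gives UMIs in cells that do not express a gene. As a reference, 7 genes of germ cells or the Y chromosome that are not members (Dnd1, Taf4b, Sall4, Ddx3y, Eif2s3y, Uty and Kdm5d) stood in feeders at 2.25% to 6.40% of their germ level in vehicle 1, at 2.24% to 5.15% in vehicle 2 and at 0% to 1.19% in EV 1. For 16 members the 95% interval of counting error reached that range in both vehicle libraries. Tex15 was at 3.02% (2.63 to 3.45) and 2.07% (1.78 to 2.39), Stk31 at 3.22% and 2.38%, Ddx4 at 2.90% and 2.46%, Rnf17 at 1.98% and 1.63%, and Tdrd1 at 3.36% and 1.89%. Such feeder levels were not above the background of the reference genes. Of the 16, members with few UMIs reached the range only through wide intervals. Btbd18 was at 15.4% and 27.5%, from 5 and 6 germ UMIs, Piwil1 at 11.9% and 8.53%, and Tdrd6 at 14.0% in vehicle 1. In EV 1, Tex15 was at 0.253% (0.128 to 0.457) and Ddx4 at 0.371% (0.0951 to 1.05), and Tdrkh, another of the 16, at 8.91% (4.28 to 20.3), above the reference range of that library.

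A total of 12 members lay above the range in both vehicle libraries: Piwil4, Tdrd3, Tdrd7, Tdrd9, Fkbp6, Exd1, Mybl1, Dnmt1, Dnmt3a, Dnmt3l, Uhrf1 and Morc1. All but Morc1 also did so in EV 1, where 14 members in all were above the range, with Gtsf1, Dnmt3b and Tdrkh. In EV 1, however, Piwil4 and Mybl1 had 1 germ UMI, and Tdrd3, Tdrd9, Fkbp6, Dnmt3l and Gtsf1 had 0. For these last only a lower limit of the percent can be given. The range of EV 1 itself ends at Ddx3y, with 3 feeder and 7 germ UMIs, so EV 1 adds little here. Dnmt1 was at 21.4% (19.4 to 23.6), 19.8% (18.1 to 21.6) and 15.9% (11.3 to 22.8), and Exd1 at 19.2%, 19.4% and 35.3%. Dnmt3a was at 87.7%, 80.5% and 116%. Uhrf1 was closest to the reference genes among the well-counted ones, at 8.91% (7.43 to 10.6), 6.91% (5.71 to 8.30) and 3.40% (1.99 to 5.89). Tdrd9, Fkbp6, Dnmt3l and Morc1 rest on 5 to 28 germ UMIs. Mov10l1, Gtsf1 and Dnmt3b were above the range in 1 vehicle library. CACGTG stood in the promoter windows of 6 of 12 members with an entry among the first 16, and of 4 of 10 among these 12.

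**Figure D2:**
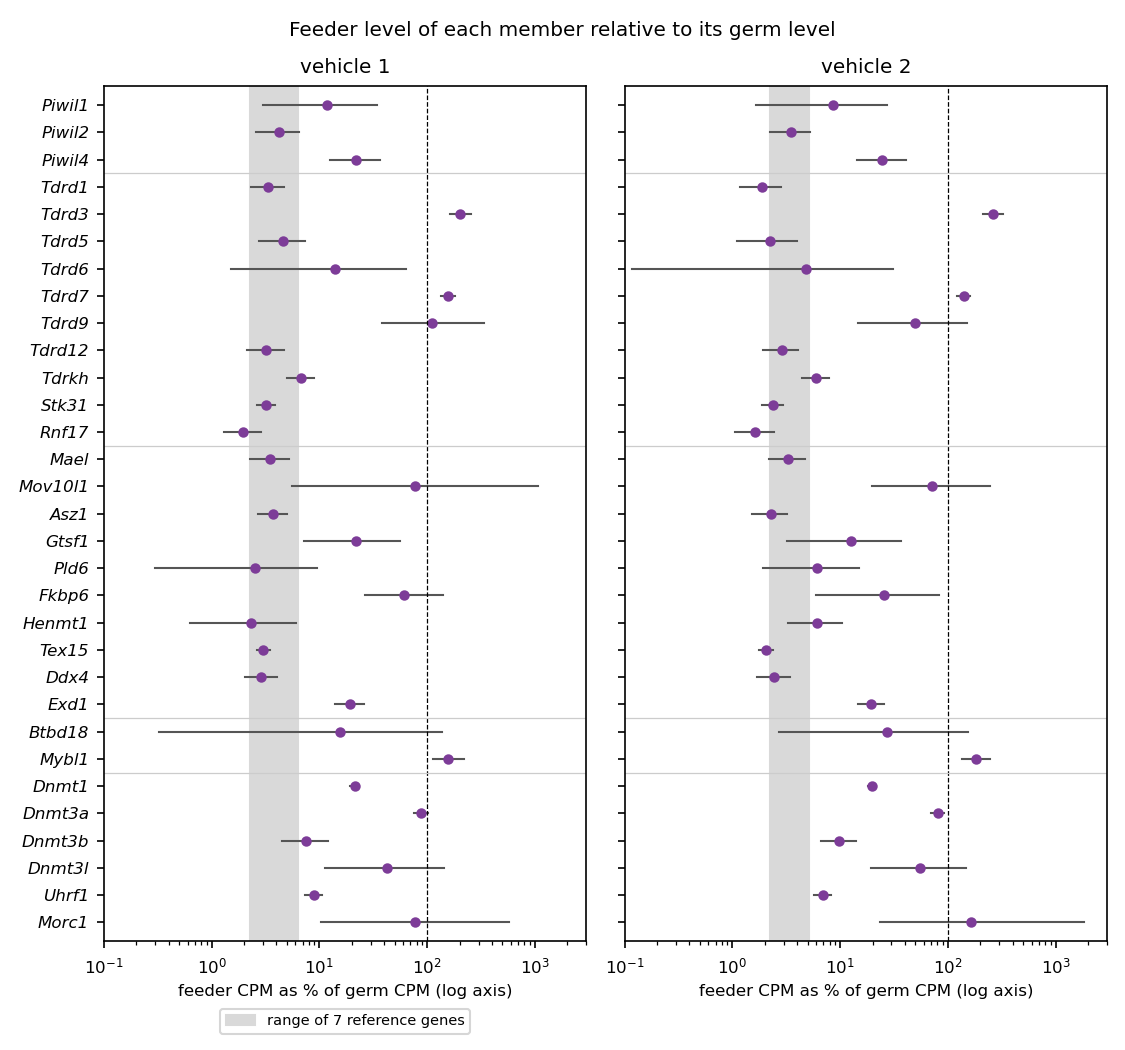
Feeder CPM as a percent of germ CPM (horizontal log axis) for each member in vehicle 1 and vehicle 2, with 95% exact conditional intervals of counting error. The grey band is the range of the 7 reference genes, and the dashed line is 100%. Tex15, Stk31, Ddx4 and Rnf17 reach the band, Dnmt1, Exd1 and Dnmt3a lie to its right, and Tdrd3, Tdrd7 and Mybl1 lie beyond 100%.

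Shares of cells with a UMI were compared at equal depth. With each cell thinned to 1000 UMIs (80, 63 and 27 germ cells and 89, 58 and 184 feeder cells were shallower and left out), Tex15 was found in 43.3% (95% Wilson interval 41.6 to 45.1), 48.0% (46.4 to 49.7) and 47.5% (37.9 to 57.2) of germ cells of vehicle 1, vehicle 2 and EV 1, and in 2.41% (1.86 to 3.12), 1.84% (1.38 to 2.45) and 0.172% (0.0668 to 0.441) of feeder cells. Ddx4 was found in 12.2%, 11.6% and 15.2% of germ cells against 0.733%, 0.532% and 0.129%. Tdrd7 was found in 3.05%, 3.44% and 2.02% of germ cells against 5.13%, 4.99% and 6.49% of feeder cells. Tex15 and Ddx4 were thus in a larger share of germ cells in each library, and Tdrd7 in a larger share of feeder cells in the vehicle libraries. In EV 1 the germ share of Tdrd7 was 2 of 99 cells, with an interval of 0.556 to 7.07 that holds the feeder share. Without thinning, Tex15 was found in 64.2%, 70.4% and 53.2% of germ cells and in 5.90%, 4.83% and 0.318% of feeder cells, at median depths of 2032, 2191 and 1354.5 UMIs in germ cells and 3593, 3854 and 2446 in feeders.

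The levels of the members within germ cells were next compared between cell cycle classes, cut from the UMIs of 20 S phase and 20 G2/M genes, none of them a member. These classes are ranges of a per-cell sum and not types. S cells numbered 573, 668 and 26 in vehicle 1, vehicle 2 and EV 1, and G2/M cells 1344, 1487 and 36. Of 20 members tested among 10120 genes, Uhrf1 and Asz1 were higher in S cells, against 6.6% of all genes tested, and Dnmt3b, Tdrd12 and Tex15 were lower, against 7.53%.

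Uhrf1, whose protein reads the hemimethylated sites that replication leaves, measured 199 and 205 CPM in vehicle S cells against 132 and 126 CPM in vehicle G2/M cells. In EV 1 it was at 136 against 132 CPM, from 5 and 10 UMIs. The log2 fold change of Uhrf1 was 0.63 ± 0.09 (edgeR adjusted p = 1.6e-10). Its partner Dnmt1 did not separate the classes, at 247 and 258 CPM in vehicle S cells against 220 and 266 CPM (log2 fold change 0.04 ± 0.08). Asz1 was slightly higher in S cells, at 141 and 156 CPM against 113 and 123 CPM (log2 fold change 0.31 ± 0.10, edgeR adjusted p = 0.017).

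Tex15 was lower in S cells, at 653 and 676 CPM against 857 and 960 CPM in vehicle G2/M cells (log2 fold change -0.45 ± 0.06, edgeR adjusted p = 1.7e-10). EV 1 went the other way, at 870 against 699 CPM, from 32 and 53 UMIs. Tdrd12, which with Exd1 serves secondary piRNA production, was at 74.8 and 78.0 CPM against 110 and 113 CPM (log2 fold change -0.58 ± 0.12, edgeR adjusted p = 6.2e-05), and EV 1 had 1 UMI in S cells and 11 in G2/M cells. Dnmt3b was at 18.9 and 20.6 CPM against 30.9 and 37.4 CPM in the vehicle libraries, and EV 1 went the other way with 54.4 against 13.2 CPM, from 2 and 1 UMIs (log2 fold change -0.76 ± 0.24, edgeR adjusted p = 0.016). The vehicle classes did not overlap for any of the 3, which adds nothing to the test, since the same sums were tested. Of the companions, 1 piRNA and granule gene was higher and 3 were lower of 15 tested, and 2 methylation genes were higher and 0 lower of 20 tested (0 in either direction by DESeq2, and 4 of the methylation genes lower at an unadjusted p under 0.05 by edgeR), against the 6.6% and 7.53% of all genes. By log2 fold change, Dnd1 (0.37), Mbd4 (0.54) and Hells (0.17) were higher in S cells and Xrn1 (-0.40), Tsn (-0.29) and Hsp90aa1 (-0.19) lower, these 6 being named after their values were seen.

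Without vehicle 1 or without vehicle 2, and with DESeq2's Wald test, no member was called, with 1 higher and 1 or 2 lower at an unadjusted p under 0.05. Calls were then few over all genes too, at 50 higher and 113 lower of 8645, 75 and 95 of 8096, and 39 and 94 of 10120, so the absence of members says little about them. The log2 fold change of Uhrf1 was 0.57 to 0.77 over the 10 alternatives and that of Tex15 -0.49 to -0.25. The ranges were 0.21 to 0.32 for Asz1, -0.79 to -0.39 for Tdrd12 and -0.81 to -0.14 for Dnmt3b. Germ cells of the S class were shallower, with median UMIs of 1697 and 1817 against 2464 and 2663 in the vehicle libraries, and with every cell thinned to 1000 UMIs Uhrf1, Tdrd12 and Tex15 were called. Without cells that carried Stra8 or Kit, a comparison chosen after seeing the data, Uhrf1 and Tex15 were called. The 10 fibroblast markers, those of the class rule included, summed to 480 and 375 CPM in vehicle S cells and to 389 and 312 CPM in vehicle G2/M cells, and their part in the values was not tested.

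**Figure D3:**
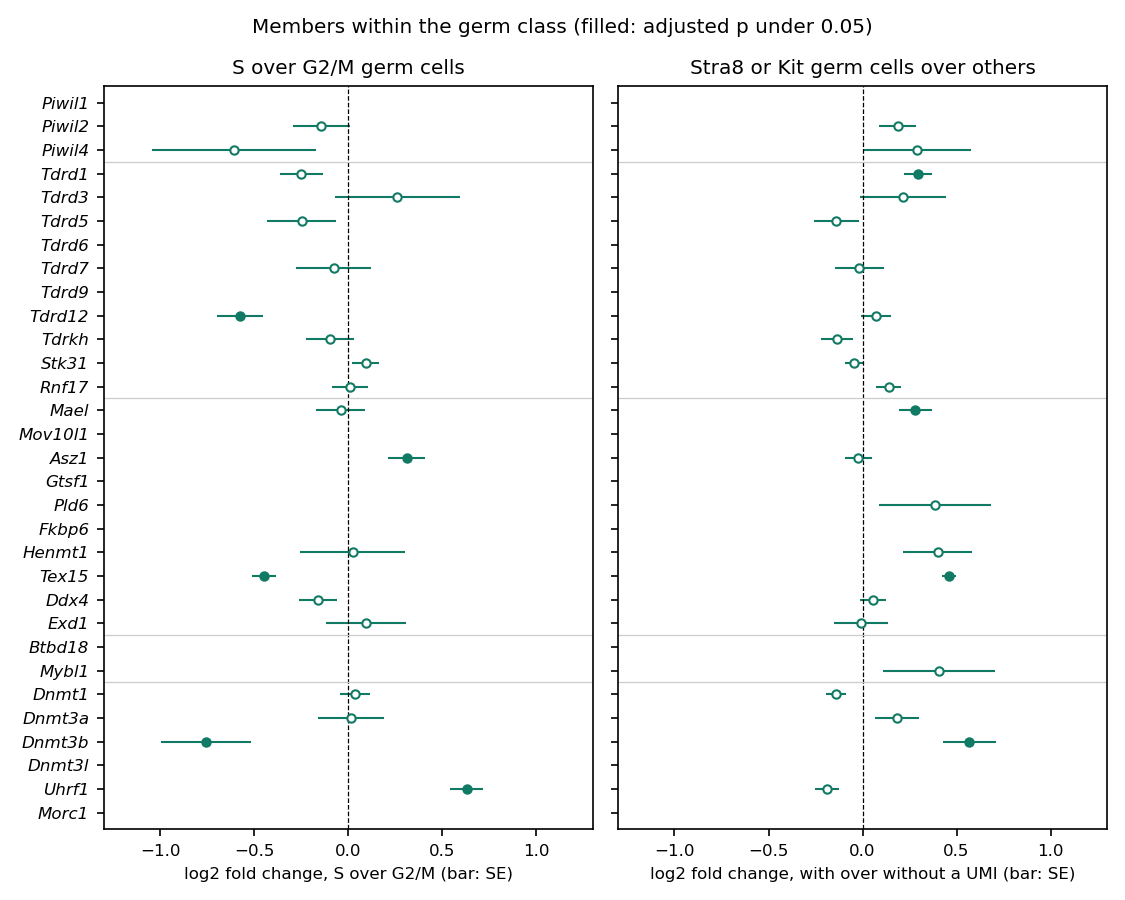
Log2 fold changes (horizontal axes) of the tested members within the germ class, with bars of 1 SE, between S and G2/M cells (left) and between cells with and without a Stra8 or Kit UMI (right). Filled points have an adjusted p under 0.05: Uhrf1 and Asz1 to the right and Dnmt3b, Tdrd12 and Tex15 to the left for S cells, and Tex15, Dnmt3b, Tdrd1 and Mael to the right for Stra8 or Kit cells.

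Germ cells with a UMI of Stra8 or Kit, genes that mark spermatogonia entering differentiation, were compared with the other germ cells in the same way. They numbered 1131, 1287 and 23 of the germ cells in vehicle 1, vehicle 2 and EV 1. Of 22 members tested among 12694 genes, Tex15, Dnmt3b, Tdrd1 and Mael were higher in them, against 1.51% of all genes tested, and 0 were lower, against 2.34% (2 at an unadjusted p under 0.05, Uhrf1 and Dnmt1, and 0 by DESeq2).

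Tex15 measured 897 and 1037 CPM in vehicle cells with Stra8 or Kit against 664 and 717 CPM in the others, and 828 against 656 CPM in EV 1. It was higher in each library (log2 fold change 0.46 ± 0.04, edgeR adjusted p = 1.1e-31). Dnmt3b was at 39.9 and 36.1 CPM against 19.4 and 29.3 CPM (log2 fold change 0.57 ± 0.14, edgeR adjusted p = 0.0041), with 0 and 4 UMIs in EV 1. Tdrd1 was at 122 and 125 CPM against 93.5 and 104 CPM in the vehicle libraries and at 153 against 112 CPM in EV 1 (log2 fold change 0.30 ± 0.07, edgeR adjusted p = 0.0038). Mael was at 84.4 and 94.0 CPM against 72.1 and 73.5 CPM (log2 fold change 0.28 ± 0.09, edgeR adjusted p = 0.033), and at 131 against 69.8 CPM in EV 1. Other members, such as Ddx4 (0.05 ± 0.07), Stk31 (-0.05 ± 0.05) and Piwil2 (0.19 ± 0.10), were not called here. Of the companions, 0 of 18 tested piRNA and granule genes and 0 of 23 tested methylation genes were called by edgeR (0 and 3 at an unadjusted p under 0.05, and 0 by DESeq2).

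Cells with Stra8 or Kit were deeper (median 2253 and 2496 against 1913.5 and 2085 UMIs in the vehicle libraries) and were more often in G2/M (50.1% and 51.1% against 35.3% and 34.4%), and their 10 fibroblast markers summed to 378 and 339 against 454 and 347 CPM. The part of these in the values was not tested. Thinned to 1000 UMIs, Tex15 and Dnmt3b were called as before. In comparisons chosen after seeing the data, Tex15 and Tdrd1 were called within G2/M cells, and Tex15 alone within cells of neither cycle class. As for the cell cycle, no member was called without vehicle 1, without vehicle 2 or by DESeq2, with 1, 2 and 1 higher and 0 lower at an unadjusted p under 0.05. Over all genes only 3 higher and 2 lower of 11527, 2 and 2 of 11028, and 2 and 0 of 12694 were called in these settings, and the log2 fold change of Tex15 was 0.30 to 0.47 over the 11 alternatives. The ranges were 0.23 to 0.99 for Dnmt3b, 0.09 to 0.43 for Tdrd1 and 0.18 to 0.36 for Mael. Without the replicate block Dnmt3b alone was called.

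Testis EVs were added to ask how secreted vesicles of the postnatal testis act on spermatogonia, and the comparison can be given as values only, since 1 EV library leaves no test. Over all kept cells, 26 members had at least 50 UMIs. Of these, 19 were lower in EV 1 than the vehicle mean by at least 2-fold, against 21.2% of 16287 genes, and 0 were higher by that fold, against 8.18%. Tex15 was at 364 and 412 CPM in the vehicle libraries and 32.1 CPM in EV 1, and Stk31 at 167, 174 and 16.0 CPM. The 7 reference genes had 0.105 times their vehicle level, and the germ class 2.64% of the cells. Fewer germ cells and less RNA per cell cannot be told apart in such a sum. Tdrd3 and Tdrd7 were higher in EV 1, at 24.9, 23.7 and 30.5 CPM and at 43.9, 47.5 and 71.9 CPM.

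Within the germ class, the EV 1 values of 23 members with at least 50 UMIs lay below both vehicle values for 18 and above both for 5, and within them for 0. Over all 12777 genes with 50 UMIs, 48.5% lay below both and 44.2% above both. The 95% counting interval of the ratio of EV 1 to the pooled vehicle included 1 for each of the 23, while 8.31% of all such genes had an interval without 1. Tex15 had a ratio of 0.870 (0.727 to 1.03), Stk31 0.927 (0.706 to 1.19), Ddx4 1.23 (0.826 to 1.76), Rnf17 1.12 (0.757 to 1.61), Dnmt1 0.777 (0.555 to 1.06) and Uhrf1 0.867 (0.570 to 1.26). Among members with fewer UMIs, Tdrd5 had 0.477 (0.130 to 1.23), Exd1 0.519 (0.107 to 1.53), Dnmt3a 0.609 (0.197 to 1.43) and Tdrkh 0.635 (0.304 to 1.17). The germ class of EV 1 carried 189155 UMIs against 7464709 and 8932268, which sets the width of these intervals. The lower level of the 8 germ cell markers (566 against 865 and 897 CPM) and the higher level of the 6 fibroblast markers (518 against 306 and 254 CPM) in this class moved with these values, and their part was not tested.

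Tdrd3 and Pld6 were lower in EV 1 germ cells by at least 2-fold on the scale with 0.5 UMI added, or 2 of 23 members against 7.92% of 12777 genes, and 0 were higher, against 13.6%. Both had 0 UMIs in EV 1, with upper limits of the ratio of 1.45 and 2.51, and 3 UMIs would be 15.9 CPM there, above their vehicle levels, so that a difference was not detectable at this depth. Summed, the 16 members whose feeder level reached the reference range had a germ class ratio of 0.925 (0.832 to 1.03), and the 12 above it 0.746 (0.593 to 0.927), from 358 and 82 UMIs in EV 1. The germ markers Dazl and Epcam, which defined the class, stood at 1.18 (1.06 to 1.32). The median log2 ratio of the 23 members was -0.18, against 0.09 over all genes with 50 UMIs, and -0.11 with the 3 members without a UMI set to 3 UMIs. TMM or DESeq2 scaling moved the median of all such genes to -0.07 and -0.05. Relative to all genes the members stood at -0.27, and scaling shifts both medians alike. That difference was -0.17 as a mean over cells and -0.36 with 1 UMI added. The median log2 ratio of vehicle 2 to vehicle 1 was 0.08 over the same members.

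**Figure D4:**
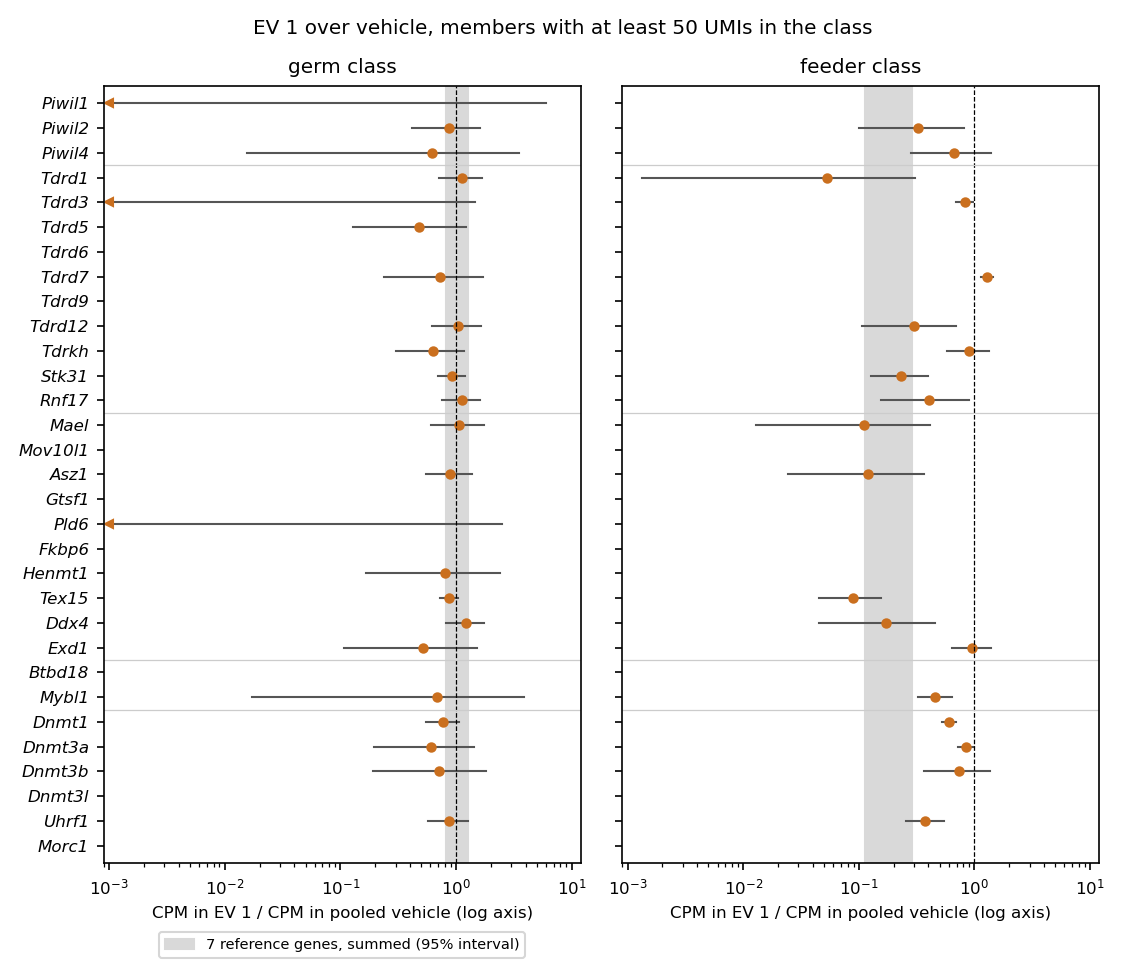
Ratio of CPM in EV 1 to CPM in the pooled vehicle libraries (horizontal log axis) for members with at least 50 UMIs, in the germ class (left) and the feeder class (right), with 95% exact conditional intervals of counting error. The grey band is the interval of the 7 reference genes summed, the dashed line is a ratio of 1, and triangles at the left edge had 0 UMIs in EV 1. In germ cells every interval crosses 1, while in feeders Tex15, Tdrd1, Mael, Asz1, Ddx4 and Stk31 lie at the band and Tdrd7 lies above 1.

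In the feeder class, 11 of 19 members with at least 50 UMIs were lower in EV 1 by at least 2-fold, against 5.22% of 12944 genes, and 0 were higher, against 2.44%. The limit was on the sum over the 3 libraries, and several met it through vehicle feeders. Tdrd1 had 57 UMIs there and 1 in EV 1, Mael 55 and 2, and Ddx4 71 and 4. The 11 members thus depend in part on the limit and are a description only. The reference genes moved with them: their sum was at 18.3 and 15.3 CPM in vehicle feeders and 3.09 CPM in EV 1 feeders, a ratio of 0.185 (0.113 to 0.287). The 16 members whose feeder level reached the reference range in the vehicle libraries had a summed ratio of 0.243 (0.195 to 0.299). Tex15 was at 22.7 and 17.4 against 1.77 CPM, a ratio of 0.0887 (0.0454 to 0.157), Stk31 at 0.234 (0.128 to 0.395) and Ddx4 at 0.170 (0.0452 to 0.455). Tdrkh, which gave 32 of the 96 UMIs of these 16 members in EV 1 feeders, stood apart at 0.895 (0.584 to 1.34). The part of the fewer germ cells of EV 1 in these values was not tested.

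The 12 members above the reference range had a summed feeder ratio of 0.841 (0.788 to 0.896). Tdrd7, which was higher in EV 1, gave 462 of the 1214 EV 1 feeder UMIs of these 12. Among them, Uhrf1 had a ratio of 0.376 (0.254 to 0.542), Mybl1 0.459 (0.322 to 0.639) and Dnmt1 0.603 (0.521 to 0.696), while Tdrd3 (0.823, 0.692 to 0.974), Dnmt3a (0.846, 0.722 to 0.988) and Exd1 (0.949, 0.641 to 1.38) lay nearer to 1. Tdrd7 was higher in EV 1 feeders, at 51.2 and 54.6 against 68.0 CPM (1.28, 1.15 to 1.43). The EV 1 value lay outside both vehicle values by more than the distance between them for 16 of the 19 members, against 65.4% of all 12944 genes, with Tdrd3, Dnmt3a, Piwil4, Dnmt1, Mybl1 and Uhrf1 below and Tdrd7 above among the 12. With 1 EV library, the spread between EV-treated cultures is unknown, and the intervals cover counting error only.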

How the data were processed

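The sequencing libraries were 10x Genomics droplet libraries. Per the labels and the study's methods, Cell Ranger 7.0.1 aligned reads to mm10 with the GENCODE vM23 annotation. Each deposited matrix holds UMI counts of genes in barcodes as whole numbers, which the authors had not normalized. Whether intronic or antisense reads were counted is not given in the sources used here, and 8 members overlap a counted gene on the other strand. The members and all lists were chosen with earlier results of these data known.

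Barcodes needed more than 400 and fewer than 4000 genes, with mitochondrial UMIs below 10%, and the highest Scrublet scores were removed at 0.8% per 1000 cells (scanpy 1.11.5). Counts were summed per library and class. An S cell had at least 3 UMIs of the S genes and at least 2 times those of the G2/M genes, and a G2/M cell the reverse. Sums were tested with edgeR 4.0.16 (TMM, low-count filter, quasi-likelihood, Benjamini-Hochberg over all genes tested, threshold 0.05), and with DESeq2 1.42.0 as an alternative. The prior degrees of freedom of edgeR were infinite for both comparisons within germ cells and 98.3 for germ cells against feeders, beside 2 residual ones. These p-values thus rest largely on a spread shared across genes. Each SE is the absolute log2 fold change over the square root of the F value of the test. On counts simulated for germ cells against feeders over 15237 genes, 99% of 100 genes changed 2-fold were recovered. The simulation gave every gene the same spread and changed well-counted genes only, so it does not speak for members with few UMIs. Classes of 1 library share a culture and were paired by a library block. For EV 1 against vehicle, CPM, exact conditional intervals of counting error and log2 ratios with 0.5 UMI added were computed, without a test. Floors are 3 UMIs. Every member is named. In each companion list, up to 3 called genes at either end of the fold changes between germ cells and feeders are named. Gene positions are from GENCODE vM21 (GRCm38). Alternatives covered scaling, filters, class limits, doublets, depth and each library.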

Additional observations from a re-analysis of the deposited data

Results flagged for a closer look

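EV 1 lay on opposite sides of both vehicle libraries in the germ class and the feeder class for 6 of 19 members with at least 50 UMIs in each, against 34.8% of all 11075 such genes, so that the count is near that of all genes. The log2 ratios of EV 1 to the vehicle mean in the germ and the feeder class were 0.20 and -3.70 for Tdrd1, 0.10 and -1.64 for Tdrd12, 0.14 and -2.89 for Mael, 0.32 and -2.41 for Ddx4, 0.19 and -1.23 for Rnf17, and -0.31 and 0.36 for Tdrd7. The difference between the classes was not tested, and each germ class ratio had a counting interval that included 1. The first 5 are members whose vehicle feeder level reached the range of the reference genes, which had a feeder ratio of 0.185 themselves.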

How the results depend on the processing

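The comparison of germ cells with feeders kept 17 to 21 members higher and 3 lower by edgeR and DESeq2 alike, except that 4 were lower with DESeq2 size factors, 2 were lower without vehicle 2, and 15 were higher with marker sums of at least 4. The calls within germ cells were less stable, and the cause was not tested. For S against G2/M cells, members higher and lower were 0 and 0 by DESeq2's Wald test, 1 and 3 without the low-count filter, 1 and 2 at 1000 UMIs, 1 and 1 without Stra8 or Kit cells (added after seeing the data), and 0 to 2 and 0 to 3 when 1 library was left out. Calls over all genes ranged from 39 higher and 94 lower by DESeq2's Wald test to 876 and 951 without EV 1, so the members' counts moved with the number of all calls. For Stra8 or Kit cells, members higher were 0 by DESeq2, 2 at 1000 UMIs and, in alternatives added after seeing the data, 2 within G2/M cells and 1 within neither cycle class. Leaving out 1 library gave 0 to 4 higher and 0 to 1 lower, with 2 to 300 genes higher overall.

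Without the replicate block of libraries, 17 members were higher and 3 lower in germ cells than in feeders, 1 and 3 in S cells, and 1 and 0 in Stra8 or Kit cells. No paired analysis was possible because EV 1 and the vehicle libraries share only replicate number 1.

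For EV 1 in germ cells, the median log2 ratio of -0.18 became -0.34 with TMM, -0.32 with DESeq2 size factors, -0.10 with 1 UMI added, -0.26 and 0.0057 with marker sums of at least 1 and at least 4, -0.093 as a mean over cells, and -0.24 to -0.16 without 1 vehicle library. Members past the fold were 3 lower with TMM, with DESeq2 size factors and as a mean over cells (1372, 1319 and 1164 of all genes, against 1012), 1 lower with 1 UMI added, with at least 200 UMIs and with marker sums of at least 4, and 1 higher with marker sums of at least 1 and at least 4. In feeders, the median of -1.23 became -1.15 with TMM, -1.13 with DESeq2 size factors, -1.17 with 1 UMI added, -0.91 with at least 200 UMIs, -1.67 without doublet removal, -1.37 and -0.65 with marker sums of at least 1 and at least 4, and -1.36 to -1.22 without 1 vehicle library. The members lower by 2-fold were 11 of 19, against 4 of 8 with at least 200 UMIs and 4 of 10 with marker sums of at least 4, with fewer members meeting the count limit. Over all cells the median was -2.78 with DESeq2 size factors, -2.99 with at least 200 UMIs, and -2.95 to -2.71 without 1 vehicle library, against -2.84. The median share of germ cells with a UMI was 3.06% at 1000 UMIs, 1.40% at 500 and 6.81% without thinning. The median feeder percent of 10.2% became 7.10% with marker sums of at least 4. Of the values for all members together, 95 moved less than the spread and 48 more, and the germ cell median was the one that changed sign.

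The depth of EV 1 germ cells, with 126 cells, limits every statement on EVs in germ cells, and 8 members had under 50 UMIs there over the 3 libraries.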
